A study of Mus musculus with 6 samples.

Results

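The 8 genes described here encode CXC chemokines of the mouse, namely *Cxcl1*, *Cxcl2*, *Cxcl3*, *Cxcl5*, *Cxcl9*, *Cxcl10*, *Cxcl11* and *Cxcl16*. They were taken by a list of gene symbols from a table of 54532 genes. The table holds RNA-seq data of bone-marrow-derived macrophages (BMDMs) of C57BL/6 mice, which were grown from marrow in medium conditioned by L929 cells, a source of macrophage growth factor. There were 3 groups of 2 libraries, all of poly-A RNA. One group was left untreated. The LPS group received lipopolysaccharide at 100 ng/ml for 2 h, and the Met + LPS group received 5 mM metformin for 6 h before the same LPS stimulation. No group received metformin without LPS, so metformin could be compared only in stimulated cells. The study asked how metformin, a drug for type-2 diabetes, alters the early response of macrophages to LPS.

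CXC chemokines are small secreted proteins that guide leukocytes through G-protein-coupled receptors. Macrophages that sense LPS, a component of Gram-negative bacteria, through the receptor TLR4 switch on NF-κB, and through the adaptor TRIF also IRF3 and interferon-β, which then acts back on the cells through its own receptor. CXCL1, CXCL2, CXCL3 and CXCL5 act on CXCR2 and attract neutrophils. CXCL9, CXCL10 and CXCL11 are induced by interferons and attract activated T cells and NK cells through CXCR3, and CXCL16 is made as a transmembrane protein that binds CXCR6.

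Promoter sequences are shown first, with matches to elements through which chemokine genes are known to be switched on. Of the interferon-inducible class only *Cxcl10* is printed. RefSeq windows of the 250 bases before the transcription start (GRCm38.p6) were given for 5 of the 8 genes, *Cxcl1*, *Cxcl2*, *Cxcl3*, *Cxcl9* and *Cxcl10*. The lines run 5′ to 3′ on the strand of the gene. Those of *Cxcl1* (chr5:90891125-90891214, plus strand), *Cxcl2* (chr5:90903779-90903868, plus strand) and *Cxcl3* (chr5:90785981-90786070, plus strand) cover the bases from 120 to 31 upstream of the start, and that of *Cxcl10* (chr5:92348890-92349139, minus strand) covers all 250. Capitals mark matches to the κB consensus, the sequence bound by NF-κB, and in *Cxcl10* also the interferon-stimulated response element (ISRE, searched as GAAA, any 2 bases and GAAA again), which comes first in its line.
Cxcl1: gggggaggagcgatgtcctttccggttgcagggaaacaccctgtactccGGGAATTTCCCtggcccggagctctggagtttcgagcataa
Cxcl2: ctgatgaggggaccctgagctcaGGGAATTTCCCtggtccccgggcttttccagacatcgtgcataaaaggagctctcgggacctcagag
Cxcl3: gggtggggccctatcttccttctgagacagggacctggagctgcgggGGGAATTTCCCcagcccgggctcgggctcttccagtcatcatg
Cxcl10: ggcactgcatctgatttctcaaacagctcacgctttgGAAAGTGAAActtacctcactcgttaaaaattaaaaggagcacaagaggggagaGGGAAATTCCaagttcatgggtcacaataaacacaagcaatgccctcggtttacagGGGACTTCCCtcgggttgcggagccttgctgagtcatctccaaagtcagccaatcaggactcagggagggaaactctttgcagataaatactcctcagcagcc

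*Cxcl1*, *Cxcl2* and *Cxcl3* carried the same stretch of 11 bases, GGGAATTTCCC, which matched the κB consensus on both strands by overlapping matches. It began 71, 97 and 73 bases upstream of their starts. Of 32851 promoter windows in the table, 14 held this stretch (0.0426%), 11 of them of genes outside the 8. The κB consensus in any of its spellings was found in 3.90% of all windows. *Cxcl10* had κB matches that began 159 and 103 bases upstream, an ISRE match that began 213 bases upstream (2.98% of all windows hold one) and a match to the AP-1 motif TGANTCA 74 bases upstream (6.75% of all windows). In the window of *Cxcl9* only the TATA box letters TATAAA, held by 12.4% of windows, were matched, beginning 195 bases upstream. The other motifs searched on both strands were the κB consensus, ISRE, AP-1 and the GAS element TTCNNNGAA, held by 7.02% of windows. *Cxcl3* also matched TATAAA, beginning 30 bases upstream, past the end of its printed line. A match is a string of letters in the sequence and no measurement of binding.

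**Figure D1:**
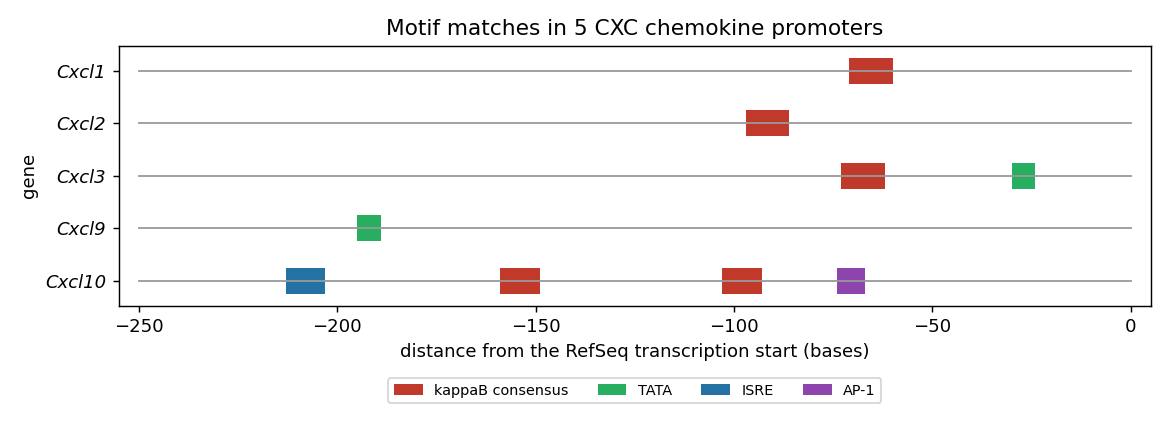
Position of motif matches (coloured boxes, to scale) in the 250 bases upstream of the RefSeq start of 5 CXC chemokine genes, with the distance from the start in bases on the x axis. The κB matches of *Cxcl1*, *Cxcl2* and *Cxcl3* begin 71, 97 and 73 bases upstream, and *Cxcl10* holds matches to 3 different motifs.

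The deposited values are TPM, a unit that corrects reads for the length of each gene and gives all libraries an equal sum. Levels compared between genes therefore depend on the lengths used. Multiplied by exon length, 96.4% to 96.6% of the values above 0 were whole multiples of 1 read, within 0.05 read, which gave 22620914 to 27341285 reads per library on those genes. All 8 chemokine genes gave whole reads. The exon lengths behind these reads were 1875, 2068 and 3498 bases for *Cxcl1*, *Cxcl2* and *Cxcl3*. Their listed transcript lengths were 953, 1859 and 1016 bases. A longer length lowers the TPM of a gene. Levels compared between genes, and sums over genes, rest on the exon lengths, while changes of the same gene between groups do not. Read numbers below and intervals made from them cover counting error only. The 8 macrophage markers listed for this check, among them *Adgre1*, *Csf1r* and *Cd68*, were at 1 TPM or more in every library, and their summed level was 44621 to 46599 TPM untreated, 37412 to 37903 after LPS and 30877 to 30948 in Met + LPS. Most of that sum was *Lyz2*, at means of 34912, 26835 and 21292 TPM. The summed level of 8 markers of T, NK and B cells was 0.179 to 0.786 TPM in the 6 libraries. The study's methods say that cells were seeded in duplicate, and no label ties the replicates to separate mice, so the p-values measure the spread between 2 libraries, which may be technical. An exact permutation test of 2 against 2 libraries cannot give a two-sided p below 0.333, and the tests used here are those of limma, fitted on log2(TPM + 1) across 12755 genes. In bulk RNA, fewer cells that make a transcript and less of it per cell cannot be told apart.

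LPS raised 6 of the 8 chemokine genes within 2 h, *Cxcl1*, *Cxcl2*, *Cxcl3*, *Cxcl9*, *Cxcl10* and *Cxcl11*, with log2 fold changes of 5.36 to 9.53 against untreated cells. A gene was called where the size of its log2 fold change reached 2 and its adjusted p was under 0.01, and as higher 3.72% of all tested genes were called. As lower, limma called 0 of the 8, against 2.37% of all tested genes, voom on the recovered reads called 0, against 7.32%, and 0 were lower at an unadjusted p under 0.05, against 66.8%. In all 8 genes both LPS libraries lay above both untreated libraries, which held for 20.1% of tested genes, while 71.5% lay below. TPM share a fixed total, and the median log2 fold change of all tested genes was -0.48 in this comparison. It became -0.01 when the libraries were rescaled by their median ratios, and LPS fold changes are best read against that shift.

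With metformin pretreatment, 1 neutrophil attractant rose further and 2 interferon-inducible genes fell. Against LPS alone, *Cxcl2* was called higher, and *Cxcl9* and *Cxcl11* were called lower, where the limit was 0.7 on the size of the log2 fold change and again 0.01 on the adjusted p. Over all tested genes 4.19% were called higher and 4.09% lower. The median log2 fold change was 0.69 for *Cxcl1*, *Cxcl2* and *Cxcl3*, leaving aside *Cxcl5*, which passed the filter through the Met + LPS libraries alone, -0.91 for the 3 interferon-inducible genes and -0.03 for all tested genes. Both Met + LPS libraries lay above both LPS libraries for *Cxcl1*, *Cxcl2* and *Cxcl5*, as for 33.8% of tested genes, and below them for the other 5, as for 40.0%.

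**Figure D2:**
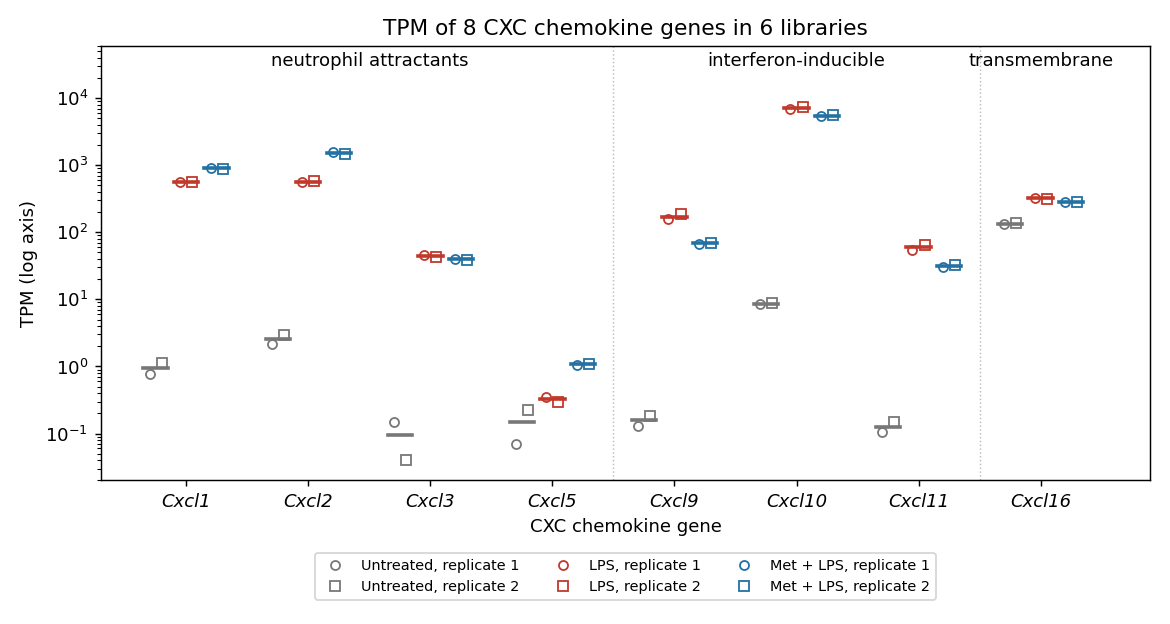
TPM (log axis) of the 8 CXC chemokine genes, with circles for replicate 1, squares for replicate 2 and a bar at the mean of each group of 2. LPS lifted all genes but *Cxcl5* and *Cxcl16* by over 2 units on the log10 axis, and in Met + LPS (blue) *Cxcl2* sat above LPS (red) at 1570 and 1472 TPM while *Cxcl9* sat below it at 67.9 and 69.3 TPM.

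*Cxcl2* (ENSMUSG00000058427, chromosome 5, 90903871 to 90905938, GRCm38), also known as MIP-2, encodes a major neutrophil attractant of mouse macrophages. It stood at 2.16 and 2.97 TPM in the untreated libraries, at 558 and 574 TPM after LPS and at 1570 and 1472 TPM in Met + LPS. The 3 groups did not overlap, and Met + LPS was the highest. LPS raised it by 7.32 on the log2 scale (SE 0.10, adjusted p = 1.4e-08), and Met + LPS stood a further 1.42 above LPS (SE 0.10, 95% interval 1.18 to 1.67, adjusted p = 9.6e-05). On TPM means this was 2.69-fold, with 51487 reads in the Met + LPS libraries and 17441 in the LPS libraries. *Cxcl2* was the only one of the 8 called higher in Met + LPS against LPS in the fit used here. Of its 31-base words, 92.4% occur in no other gene, the rest being shared with *Cxcl3*.

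*Cxcl1* (ENSMUSG00000029380, chromosome 5, 90891241 to 90893115), known as KC, is a close relative of *Cxcl2* with the same receptor. Its level was 0.772 and 1.12 TPM untreated, 558 and 554 TPM with LPS, and 911 and 883 TPM in Met + LPS. LPS raised it by 8.17 on the log2 scale (SE 0.08, adjusted p = 3.2e-09). Met + LPS was 1.61-fold above LPS, and the log2 fold change of 0.69 (SE 0.08, 95% interval 0.50 to 0.88, adjusted p = 0.00068) passed the limit on p and lay just under the limit of 0.7. It crossed that limit in 3 alternative fits, at 0.70 after median-ratio rescaling, 0.72 with voom on the recovered reads and 0.71 without the second Met + LPS library. The ratio of *Cxcl2* to *Cxcl1* in TPM was 2.80 and 2.66 untreated, 1.0 and 1.04 with LPS and 1.72 and 1.67 in Met + LPS, with no overlap between groups. The size of this ratio rests on the exon lengths of both genes, and its change between groups does not.

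*Cxcl3* (ENSMUSG00000029379, chromosome 5, 90786103 to 90789600), the third CXCR2 ligand of this stretch of chromosome 5, was present at 0.150 and 0.0399 TPM untreated, from 5 reads in all. LPS libraries held 45.2 and 42.9 TPM, and Met + LPS libraries 39.8 and 39.1 TPM. The increase with LPS was 5.36 on the log2 scale (SE 0.07, adjusted p = 1.1e-08), and the ratio of read rates was 456 with a 95% counting interval of 195 to 1404. In Met + LPS against LPS the log2 fold change was -0.16 (95% interval -0.32 to 0.01, adjusted p = 0.11), which passed no limit. Both Met + LPS libraries were below both LPS libraries, and the means differed 1.12-fold.

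*Cxcl5* (ENSMUSG00000029371, chromosome 5, 90759360 to 90761624), a further CXCR2 ligand, was the lowest of the 8 genes in both stimulated groups. It was measured at 0.0706 and 0.225 TPM untreated, at 0.353 and 0.294 TPM with LPS and at 1.07 and 1.09 TPM in Met + LPS. These values rest on 4, 9 and 33 reads per group, and the gene passed the filter of 1 TPM in 2 libraries through the Met + LPS libraries alone. The LPS effect was 0.21 on the log2 scale (SE 0.16, adjusted p = 0.26), and the ratio of read rates was 2.23 with an interval of 0.622 to 9.90. Met + LPS stood 0.65 above LPS on the log2 scale, past no limit, with a ratio of read rates of 3.33 (1.56 to 7.92). Because the gene entered the fit through the Met + LPS libraries, no test of this difference is read.

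Markers of neutrophils were summed as a check of the cells present. The level of 9 of them together was 30.0 to 32.8 TPM untreated, 26.7 to 28.2 with LPS and 43.8 to 45.9 in Met + LPS. Most of it was *Elane*, *S100a8* and *S100a9*. In untreated, LPS and Met + LPS cells their means were 16.3, 8.64 and 15.6 TPM, 5.52, 5.90 and 8.53 TPM, and 4.90, 9.08 and 14.3 TPM. *Ly6g* and *Retnlg* were at 0 in all untreated and LPS libraries and had 1 read each in 1 Met + LPS library. Of the 5 that could be tested, 0 were called by limma in Met + LPS against LPS, where 4.19% of all tested genes were called higher. At an unadjusted p under 0.05, 4 of the markers were higher (24.9% of all tested genes), and voom called 2 higher (5.80%). Their part in the levels of *Cxcl1*, *Cxcl2* and *Cxcl5* was not tested.

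*Cxcl9* (ENSMUSG00000029417, chromosome 5, 92321347 to 92328079), also called MIG, is classically induced by interferon-γ. Its level was 0.131 and 0.185 TPM in untreated cells, from 7 reads, 155 and 186 TPM with LPS, and 67.9 and 69.3 TPM in Met + LPS. LPS raised it by 7.21 on the log2 scale (SE 0.09, adjusted p = 8.4e-09), with a ratio of read rates of 1083 (526 to 2696). The Met + LPS level was 2.49-fold lower than that of LPS, at a log2 fold change of -1.30 (SE 0.09, 95% interval -1.50 to -1.09, adjusted p = 7.6e-05). This was the largest decrease among the 8 genes, and the gap between the groups exceeded the gap between the LPS libraries.

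*Cxcl11* (ENSMUSG00000060183, chromosome 5, 92359544 to 92365485), known as I-TAC, changed in the same direction. It was at 0.104 and 0.147 TPM untreated, again from 7 reads, at 55.2 and 64.1 TPM with LPS, and at 30.0 and 32.3 TPM in Met + LPS. The increase with LPS was 5.75 on the log2 scale (SE 0.08, adjusted p = 1.8e-08), and the read rates differed 477-fold (231 to 1186). Met + LPS was 1.92-fold lower than LPS, at -0.91 (SE 0.08, 95% interval -1.12 to -0.71, adjusted p = 0.00028). Only 57.8% of the 31-base words of this gene are its own, since the processed pseudogene *Gm2673*, which overlaps it, shares many of them. *Gm2673* was listed at 0 in all 6 libraries, and how the counting treated shared reads was not stated.

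*Cxcl10* (ENSMUSG00000034855, chromosome 5, 92346638 to 92348889), also called IP-10, is induced directly by IRF3 and NF-κB as well as by interferons. It stood at 8.41 and 8.86 TPM untreated and reached 6961 and 7310 TPM after LPS, the 13th and 12th highest gene of those libraries. In Met + LPS it was at 5491 and 5520 TPM, rank 19 in both. LPS raised it by 9.53 on the log2 scale (SE 0.04, adjusted p = 4.2e-10), the largest of the 8 on this scale, while in ratios of read rates its 826 (736 to 931) was below the 1083 of *Cxcl9*, whose interval includes it. Met + LPS was 1.30-fold lower than LPS, at a log2 fold change of -0.37 (SE 0.04, 95% interval -0.47 to -0.28, adjusted p = 0.00043), which passed the limit on p and not that on fold. The ratio of *Cxcl10* to *Cxcl9* in TPM was 64.3 and 47.9 untreated, 44.9 and 39.3 with LPS and 80.9 and 79.7 in Met + LPS, so that the 3 interferon-inducible genes did not move by an equal factor. *Cxcl10* and *Cxcl11* both overlap *Art3* on the other strand, which was at 0 to 0.174 TPM, and the use of strand in counting was not stated.

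*Cxcl16* (ENSMUSG00000018920, chromosome 11, 70453983 to 70459984) encodes the transmembrane member, which also acts as a scavenger receptor on macrophages. Unlike the others it was high before stimulation, at 133 and 137 TPM, and it reached 329 and 310 TPM with LPS and 282 and 281 TPM in Met + LPS. The LPS effect of 1.24 on the log2 scale (SE 0.04, adjusted p = 5.2e-07) passed the limit on p and lay under the fold limit of 2, at 2.37-fold on the means. Met + LPS gave -0.18 against LPS (95% interval -0.27 to -0.09, adjusted p = 0.0098), 1.13-fold lower on the means, again under the limit on fold. *Zmynd15*, which overlaps it on the other strand, was at 5.46 to 7.55 TPM, and 81.5% of the 31-base words of *Cxcl16* are its own.

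**Figure D3:**
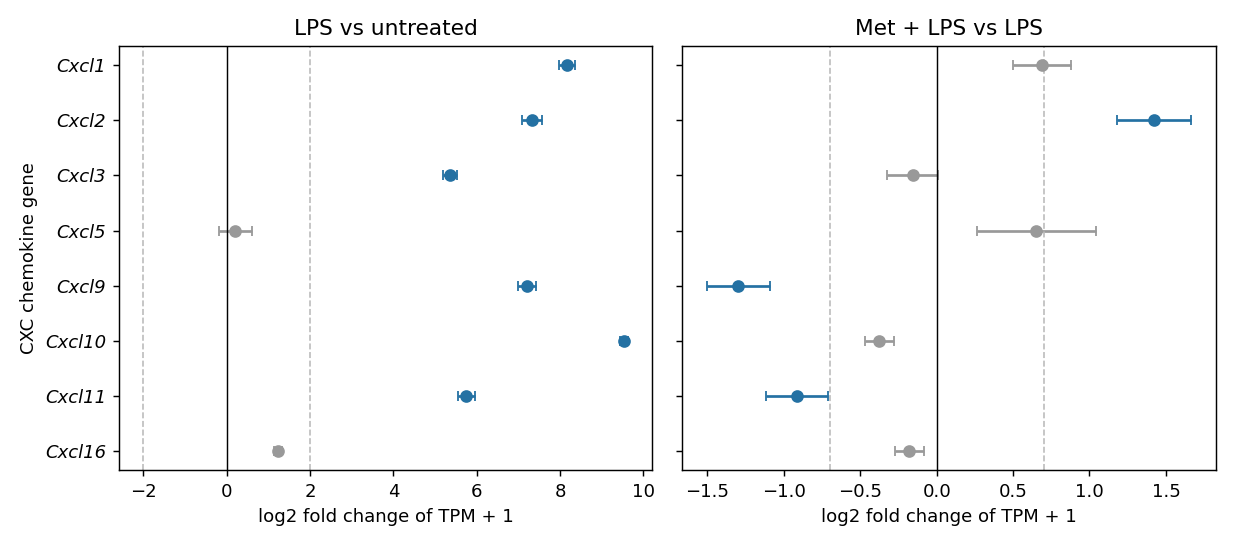
Log2 fold change of TPM + 1 with its 95% interval (bars) for LPS vs untreated (left) and Met + LPS vs LPS (right), with blue for genes called and grey for those not called. Dashed lines mark the fold limits of 2 and 0.7, and in the right panel *Cxcl2* lies beyond the upper line and *Cxcl9* and *Cxcl11* beyond the lower one.

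The classes were also set against each other library by library. The mean log2(TPM + 1) of the 4 neutrophil attractants minus that of the 3 interferon-inducible genes was -0.49 and -0.39 in the untreated libraries, -2.57 and -2.77 with LPS, and -1.12 and -1.20 in Met + LPS. The change from LPS to Met + LPS was 1.51 on this scale, and the groups did not overlap. Much of the drop from untreated to LPS came from *Cxcl5*, which rests on few reads. With *Cxcl1*, *Cxcl2* and *Cxcl3* alone, a choice made after seeing the data, the difference was -0.29 and -0.21 untreated, -0.69 and -0.89 with LPS, and 0.77 and 0.67 in Met + LPS, so that it was positive in Met + LPS only. This difference mixes genes of very different levels and has no test, since the genes of a class are not replicates. Its sign also rests on the exon lengths behind the TPM.

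In summed TPM the 8 genes amounted to 145 and 150 TPM untreated, 8662 and 9041 TPM with LPS and 8394 and 8296 TPM in Met + LPS. Their total was somewhat lower in both Met + LPS libraries than in both LPS libraries, and its make-up differed more. The neutrophil attractants supplied 13.4% and 13.0% of it with LPS and 30.0% and 28.9% in Met + LPS. The interferon-inducible genes, chiefly *Cxcl10*, supplied 82.8% and 83.6% with LPS and 66.6% and 67.8% in Met + LPS. In untreated cells *Cxcl16* held most of the total, the neutrophil attractants 2.18% and 2.89%, and the interferon-inducible genes 5.98% and 6.11%. The size of these shares rests on the exon lengths behind the TPM.

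**Figure D4:**
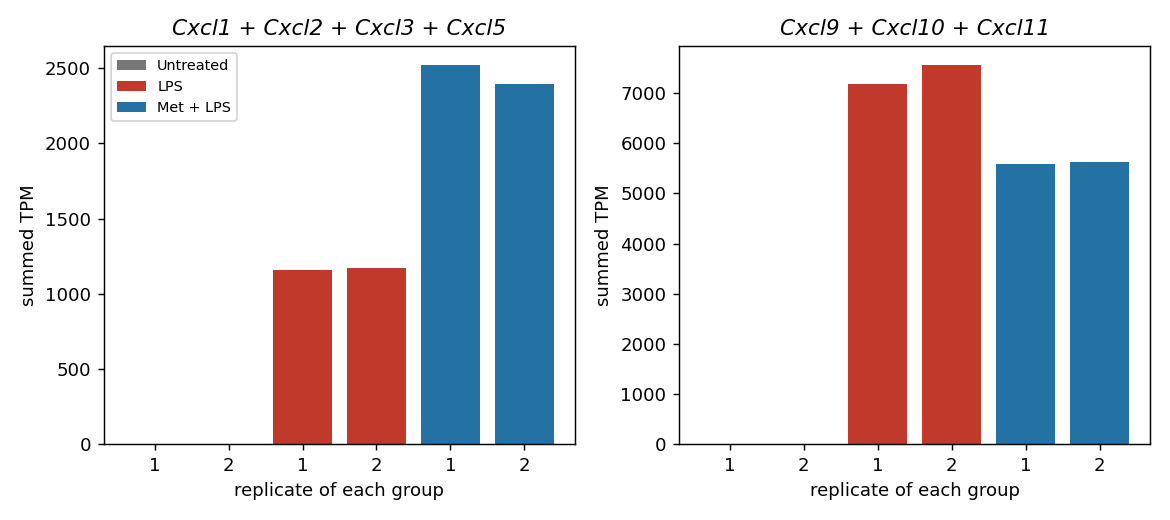
Summed TPM (linear axis from 0) of the 4 neutrophil attractants (left) and the 3 interferon-inducible genes (right) in each of the 6 libraries, coloured by group. The left bars went from 1161 and 1171 TPM with LPS to 2522 and 2394 TPM in Met + LPS, and the right bars from 7172 and 7560 TPM to 5589 and 5621 TPM.

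In TPM, which rest on the exon lengths used, the order of the levels also changed. Untreated cells ranked *Cxcl16* first, then *Cxcl10*, *Cxcl2* and *Cxcl1*, followed by *Cxcl9*, *Cxcl5*, *Cxcl11* and *Cxcl3*, whose libraries overlapped from each to the next. With LPS the order was *Cxcl10*, *Cxcl2*, *Cxcl1*, *Cxcl16*, *Cxcl9*, *Cxcl11*, *Cxcl3* and *Cxcl5*, and only *Cxcl2* and *Cxcl1* overlapped. In Met + LPS no neighbours overlapped, *Cxcl2* was 1.72-fold and 1.67-fold above *Cxcl1* in replicates 1 and 2, and *Cxcl3* stood above *Cxcl11*.

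Against untreated cells, Met + LPS left the same 6 genes called higher at the limit of 2 (3.18% of tested genes). Their log2 fold changes were 8.86 for *Cxcl1*, 8.75 for *Cxcl2*, 5.21 for *Cxcl3*, 5.91 for *Cxcl9*, 9.16 for *Cxcl10* and 4.83 for *Cxcl11*. The constant added to TPM shrank these values too, most where untreated levels were lowest. As lower, 0 of the 8 were called by limma (2.16% of all tested genes) or by voom (7.48%), and 0 were lower at an unadjusted p under 0.05 (64.6%). All 8 had both Met + LPS libraries above both untreated libraries, as had 21.7% of tested genes, whereas 69.1% were below. This comparison shares its untreated libraries with the LPS comparison, and the values are set side by side only. As a share of the LPS response in TPM, Met + LPS kept 270% for *Cxcl2*, 161% for *Cxcl1*, 89.5% for *Cxcl3*, 79.6% for *Cxcl16*, 77.1% for *Cxcl10*, 52.1% for *Cxcl11* and 40.1% for *Cxcl9*. On the log2 scale the same shares lay between 82.0% for *Cxcl9* and 119% for *Cxcl2*, over the 7 genes with a share. No share was computed for *Cxcl5*, which gave 0.86 against untreated cells and was not called.

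Of 7 other CXC chemokine genes listed, *Cxcl13* and *Cxcl15* were at 0 in all libraries and 3 could be tested, the platelet factor *Pf4*, *Ppbp* and *Cxcl14*. By limma 0 of the 3 were called in Met + LPS against LPS, where 4.19% of all tested genes were called higher and 4.09% lower. By voom 0 were called, against 5.80% of all genes higher and 5.16% lower. At an unadjusted p under 0.05, 1 was higher and 1 lower, as were 24.9% and 30.0% of all tested genes. *Pf4* was the most abundant, at 30.5 and 30.6 TPM untreated, 42.3 and 38.8 TPM with LPS and 25.5 and 29.8 TPM in Met + LPS.

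Of 8 receptor genes, 2 could be tested. In Met + LPS against LPS 1 was called higher and 1 lower, as were 4.19% and 4.09% of all tested genes. *Cxcr4*, the receptor of CXCL12, had mean levels of 462 TPM untreated, 13.5 TPM with LPS and 85.3 TPM in Met + LPS, and it was called lower in LPS against untreated (log2 fold change -5.01, adjusted p = 1.6e-07) and higher in Met + LPS against LPS (2.57, SE 0.12). Against untreated cells Met + LPS gave -2.43 for *Cxcr4*, called lower, and -1.90, short of the limit, after median-ratio rescaling. *Cxcr3*, the receptor of the 3 interferon-inducible members, had means of 11.2, 5.85 and 2.62 TPM and was called lower in Met + LPS against LPS (-0.92, SE 0.11), and against untreated cells it gave -0.82 with LPS, under the fold limit of 2. *Cxcr2*, which binds the neutrophil attractants, was at 0.216 and 0.0916 TPM untreated and at 0 in the other 4 libraries, where 3 reads would amount to at most 0.135 TPM. *Cxcr6*, the receptor of CXCL16, was at means of 0.380 TPM with LPS and 0.254 TPM in Met + LPS and was not tested.

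Among 6 genes of proteases that shed or trim CXC chemokines, 4 could be tested. In Met + LPS against LPS 1 of these was called, as higher, against 4.19% of all tested genes. *Mmp12*, a macrophage elastase that cleaves CXCR2 ligands, was called higher in Met + LPS at a mean of 471 TPM against 258 TPM with LPS (0.86, SE 0.04, adjusted p = 2.1e-05). *Adam10*, a sheddase of CXCL16, stood at 101 TPM against 90.1 TPM, a log2 fold change of 0.16 that passed no fold limit.

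The regulators of the classes were then compared with their targets. All 12 listed NF-κB subunits and regulators could be tested. All 12 were higher with LPS at an adjusted p under 0.01, as were 2069 of all 12755 tested genes. Past the fold limit of 2 were 10 of the 12, against 3.72% of all tested genes. In Met + LPS against LPS 1 was called, *Bcl3*, a nuclear IκB protein, which fell by 0.91 on the log2 scale (SE 0.06, adjusted p = 8.4e-05), and the median was -0.23. Of all tested genes 4.09% were called lower and 4.19% higher. At an adjusted p under 0.01 without the fold limit, 7 of the 12 were lower and 1 higher. Of all 12755 tested genes 2301 were lower and 1855 higher by that measure. *Nfkbiz*, which encodes the nuclear cofactor IκBζ, was at 682 TPM with LPS and 791 TPM in Met + LPS. Its log2 fold change of 0.21 lay under the fold limit.

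In Met + LPS against LPS, 4.19% of all tested genes were called higher and 4.09% lower. Of 11 genes of interferon induction and signalling, 1 was called, as higher. This was *Ifnb1*, interferon-β itself, at 0.351 and 0 TPM untreated, 148 and 182 TPM with LPS and 738 and 686 TPM in Met + LPS. Its log2 fold change was 2.11 (SE 0.15, adjusted p = 0.00011), and with a pseudocount of 0.1 the adjusted p was 0.033, above the limit of 0.01. The direction of *Ifnb1* was thus opposite to that of *Cxcl9* and *Cxcl11*. *Irf1*, a transcription factor of interferon-γ responses, gave -0.26, under the fold limit, and the median of the 11 genes was -0.30. At an adjusted p under 0.01 without the fold limit, 8 of the 11 were lower and 1 higher, against 2301 and 1855 of all 12755 tested genes.

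All 14 other interferon-stimulated genes listed were higher with LPS at an adjusted p under 0.01, as were 2069 of all 12755 tested genes. Past the fold limit of 2 were 12 of the 14, against 3.72% of all tested genes. In Met + LPS against LPS 1 of the 14 was called lower, as were 4.09% of all tested genes. This was *Usp18*, a brake on the interferon receptor, at -0.78 (SE 0.07, adjusted p = 0.00023). It stood at -0.69, short of the limit, without the second LPS library. At an adjusted p under 0.01 without the fold limit, 6 of the 14 were lower and 1 higher, against 2301 and 1855 of all 12755 tested genes. The median of the 14 genes in Met + LPS against LPS was -0.34, near the value of *Cxcl10* and less negative than those of *Cxcl9* and *Cxcl11*. *Mx1* gave -0.68 and *Ifit1* 0.25, neither past the fold limit.

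**Figure D5:**
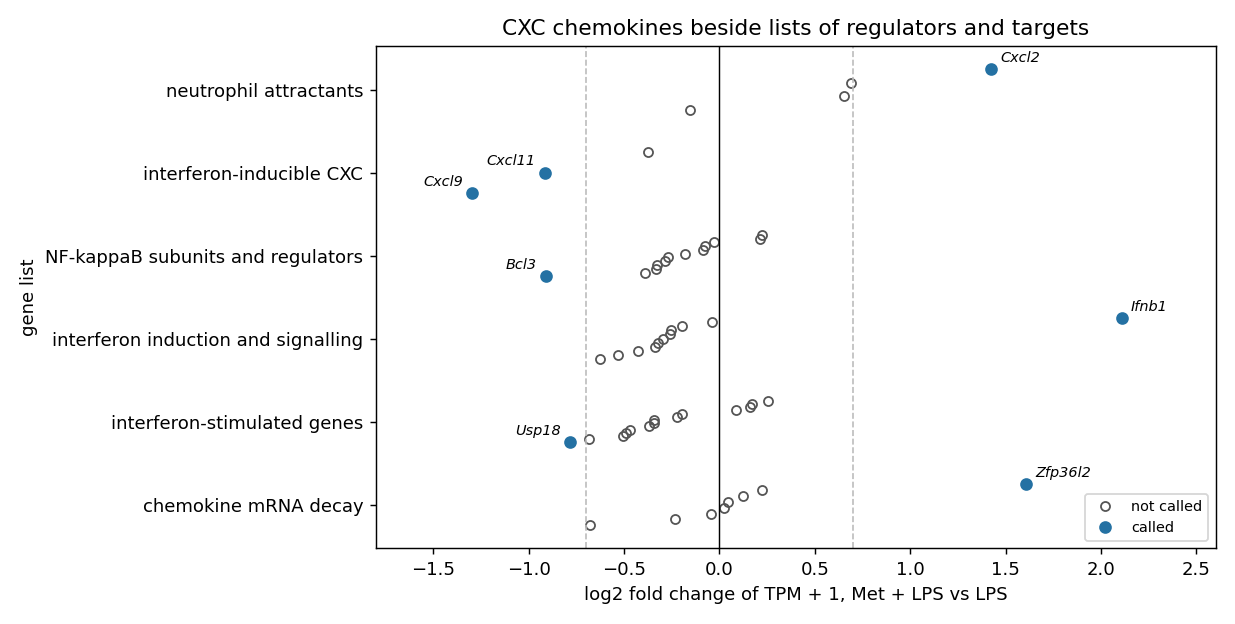
Log2 fold change of TPM + 1 in Met + LPS vs LPS for the 2 chemokine classes and for 4 lists of regulators and targets, 1 point per tested gene, with called genes filled and named and dashed lines at -0.7 and 0.7. *Cxcl2*, *Ifnb1* and *Zfp36l2* lie beyond the right line, and *Cxcl9*, *Cxcl11*, *Bcl3* and *Usp18* beyond the left one.

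Many chemokine transcripts carry AU-rich elements through which decay factors shorten their life. Of 8 genes of such factors, 1 was called in Met + LPS against LPS, *Zfp36l2*, a member of the tristetraprolin family, at a mean of 44.5 TPM against 13.9 TPM with LPS (1.61, SE 0.06). Of all tested genes 4.19% were called higher and 4.09% lower. *Zfp36*, tristetraprolin itself, was at 244 TPM against 391 TPM, a log2 fold change of -0.68 that lay short of the limit and passed it without the first LPS library (-0.74) and without the first Met + LPS library (-0.74). *Zc3h12a*, the RNase Regnase-1, gave 0.22, under the fold limit.

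The genes whose pattern was most like each chemokine were those at the smallest Euclidean distance of log2(TPM + 1) over the 6 libraries, after centring each gene on its mean. *Cxcl1* was nearest to the CCL chemokine *Ccl2* (0.52) and to *Ptgs2* (0.65), the inducible cyclooxygenase. *Cxcl2* was nearest to *Tnf* (0.78) and *Ifnb1* (0.91), which were also higher in Met + LPS, *Tnf* at 3920 and 3914 TPM with LPS and 8213 and 7925 TPM in Met + LPS. For *Cxcl3* they were *Jdp2* (0.21) and *Tnfsf15* (0.29), and for the barely detected *Cxcl5* they were *Gfpt1* (0.14) and *Tax1bp1* (0.16). *Cxcl9* was nearest to *Rnd1* (0.39), which went from 354 and 346 TPM with LPS to 138 and 140 TPM in Met + LPS, and to *Adamts4* (0.41). *Cxcl11* was nearest to *Tmem200b* (0.17) and *Marcksl1* (0.42), and *Cxcl10* to *Acod1* (0.56), which makes itaconate, and *Il1b* (0.58). *Cxcl16* was nearest to *Rap1b* (0.10) and *Mob1b* (0.10). None of the 8 was among the 2 nearest genes of another.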

How the data were processed

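The authors mapped their single-end libraries of poly-A RNA on GRCm38 by STAR 2.6.1d, used SAMtools 1.9, counted reads per gene with featureCounts of Subread 1.6.3, and deposited TPM for 54532 genes without pooling replicates. How counts became TPM is not given in the sources used here. All 6 columns of values were used, and 0 were left unused. Genes that reached 1 TPM in 2 or more libraries (12755) were tested with limma 3.58.1 (R 4.3.3) on log2(TPM + 1), by lmFit and trended eBayes, the 6 libraries in 1 fit with 3 residual degrees of freedom, and Benjamini-Hochberg adjustment over all tested genes. The limits on fold change and p were those of the study, and the fold limit of 2 was also used for Met + LPS vs untreated. The DESeq2 test that the study ran on its counts was not used, since TPM are not counts. Reads were recovered with exon lengths of the GENCODE annotation of GRCm38, found for 54409 genes, at a tolerance of 0.05 read, and served for limma voom. On simulated reads for Met + LPS vs LPS with 12141 genes, limma recovered 164 of 200 changed genes (82.0%) with 7 false calls. In the same simulation voom recovered 183 (91.5%) with 2 false calls. The fit with the replicate number as a block recovered 156 (78%) with 4 false calls. These shares were not split by the size of the change, so they give no recovery rate for changes close to the fold limit. Each simulated gene had the same mean in all groups unless changed, so no LPS response was simulated. The variation between libraries was fixed in advance and not estimated from these data. The shares rest on these settings. Ratios of read rates have exact 95% intervals. Python 3.11.15 served for tables, with scipy 1.17.1, pandas 2.3.3 and numpy 2.4.6, and plots with matplotlib 3.10.9.

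The members and gene lists were chosen with earlier results of these data known. All 8 members were named. Of every other list, those named were the genes called in Met + LPS vs LPS (up to 4) plus *Ifnb1*, *Irf1*, *Nfkbiz*, *Zfp36*, *Zc3h12a*, *Cxcr2*, *Cxcr3*, *Cxcr6* and *Adam10*, and for each member the 2 genes nearest in pattern. A further gene of this rule is not reported here. Values of *Pf4*, *Ly6g*, *Retnlg*, *Elane*, *S100a8*, *S100a9*, *Mx1*, *Ifit1*, *Lyz2*, *Kdr* and of genes that overlap a member were added after their values were seen. Alternatives were another pseudocount, no filter or a stricter filter, median-ratio rescaling, fitting only the compared groups, a replicate block, eBayes without a trend, voom, a fold limit of 1, and leaving out each library.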

Additional observations from a re-analysis of the deposited data

How the results depend on the processing

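Over the members' values and these alternatives, 348 kept their direction and side of the limits, 8 passed a limit that they had missed, 1 no longer passed, and 0 changed direction. Direction could change only with the other pseudocount, rescaling, voom, or without a library of a compared group. The remaining alternatives leave each log2 fold change as it was, so most of these entries are no check of direction. In Met + LPS vs LPS the members called higher were 1 in the fit reported, 2 after median-ratio rescaling, 3 with voom (*Cxcl1*, *Cxcl2* and *Cxcl5*, the last of which entered the fit through the Met + LPS libraries) and 1 to 2 when a library was left out, the second without Met + LPS replicate 2. At a fold limit of 1 the members called lower went from 2 to 1, *Cxcl11* falling short. With a pseudocount of 0.1 the change in the difference between classes was 1.73 in place of 1.51 (also 1.51 without *Cxcl5*), and the median share of the LPS response kept was 108% for *Cxcl1* to *Cxcl3* and 88.4% in place of 84.1% for *Cxcl9* to *Cxcl11*, the latter 82.6% to 85.7% when a library was left out. *Cxcl5* had no value at a minimum of 5 TPM.

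Over all tested genes, LPS vs untreated gave 474 higher and 302 lower. These were 663 and 129 after rescaling, 697 and 815 at a pseudocount of 0.1, 679 and 889 with voom and 1082 and 2474 at a fold limit of 1. Met + LPS vs LPS gave 534 higher and 522 lower, and 257 and 198 at a limit of 1. Met + LPS vs untreated gave 406 higher and 276 lower, then 571 and 98 after rescaling, 609 and 848 at a pseudocount of 0.1, 600 and 908 with voom and 962 and 2752 at a limit of 1. After rescaling, *Adam10* changed direction, to 0.064 in LPS vs untreated and 0.24 in Met + LPS vs untreated. *Fcgr1* in LPS vs untreated was at -0.0031 in the main limma fit (adjusted p = 0.97), so its direction was not settled. It was 0.52 after rescaling and -0.11 to 0.10 when single libraries were left out (0.024 without untreated replicate 2). Rescaling divided the untreated libraries by 1.29 and the LPS and Met + LPS libraries by 0.887 to 0.898. It therefore raises the log2 fold changes against untreated cells. The causes of the other shifts were not tested.

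Deviations of same-numbered libraries from their group means correlated at -0.0037, 0.028 and 0.0062, so no strong shared replicate effect was seen. The library titles carry the letters A and B for the replicates. These correlations cannot tell whether the libraries of a letter were prepared as a set. With the replicate number as a block the members called were again 6, 1 higher and 2 lower, and 6, and all tested genes called in Met + LPS vs LPS were 527 higher and 517 lower.

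Depth limited *Cxcl5* everywhere and *Cxcl3*, *Cxcl9* and *Cxcl11* in untreated cells, where 4 to 7 reads per gene and group leave the fold changes with wide counting intervals.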

Other observations

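Some lists fixed for the check of cell types held values outside the comparisons above. *Fcgr1*, the high-affinity IgG receptor and itself interferon-inducible, was the only 1 of 8 macrophage markers called in Met + LPS vs LPS, at a mean of 74.4 TPM against 165 TPM with LPS (log2 fold change -1.14, SE 0.07). Of all tested genes 4.09% were called lower. Without the fold limit, 6 of the 8 markers were lower at an adjusted p under 0.01 and 0 higher. Of all 12755 tested genes 2301 were lower and 1855 higher by that measure. *Ccr7*, a receptor of migrating dendritic cells, was at 3.18 TPM in Met + LPS and 1.02 TPM with LPS (1.05, SE 0.19), a call lost without any 1 of the 4 libraries compared, with no filter on low values and without the trend in eBayes. The summed level of 6 markers of dendritic cells was 3.45 to 3.48 TPM with LPS and 5.27 to 6.16 TPM in Met + LPS. That of 7 markers of fibroblasts and endothelial cells was 21.8 to 24.3 TPM and 33.2 to 35.0 TPM, of which *Kdr* alone made up most.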
